A study of Mus musculus with 8 samples.

Results

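The common myeloid progenitors (CMP) of telomere-dysfunctional mice were compared with those of normal mice across all genes measured on 4 arrays of a series of 8. The members were the genes that reached a signal of 50 on at least 2 of these 4 arrays, read by 1 probe set each, the one with the highest mean signal. This gave 8570 genes of the 18193 with a usable probe set. Of these, 7695 reached 50 on all 4 arrays, 78 passed through both telomere-dysfunctional arrays alone and 61 through both normal arrays alone.

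Expression was measured in CMP and in granulocyte-monocyte progenitors (GMP), sorted by flow cytometry from bone marrow of male mice with a background given in the labels as mainly C576BL/6. The normal group was G0 TERTER/+, mice with 1 copy of a modified allele of Tert, the catalytic subunit of telomerase. The telomere-dysfunctional group was G4/G5 TERTER/ER, late-generation mice with the modified allele on both chromosomes. Each group held 2 pools of 4 mice matched for age and sex, with 5000 to 20000 sorted cells per sample, so each value is an average over pooled animals. Both groups carry the modified allele. All p-values here measure the spread of such pools. The sources used here do not say whether CMP and GMP pools of one number came from the same mice, nor which surface markers defined the sort. In sorted bulk samples, fewer cells of a type and less RNA per cell cannot be told apart.

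As background, CMP are early bone marrow progenitors that give rise to red cells and megakaryocytes on one side and, through GMP, to granulocytes and monocytes on the other. As granulocytes mature they make primary granule proteins first and secondary and tertiary granule proteins later. Telomerase keeps chromosome ends long, and ends that become too short are sensed as DNA damage, which acts through the p53 pathway.

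Signals are microarray intensities scaled to a trimmed mean of 100 on each array. Differences are on the log2(signal + 10) scale, where 1 unit is a 2-fold difference for bright genes and a larger one for dim genes. The median absolute difference per gene was 0.25 between the G0 CMP pools and 0.26 between the G4/G5 CMP pools. The difference of the genotype means had a median of 0.03, but this one is signed, so rises and falls cancel and the values are not comparable. One array stood apart: on the first principal component of the CMP arrays, with 47.2% of the variance, G4/G5 pool 1 lay at 31.6 and the others between -14.8 and -4.98. G0 pool 1 stood apart on the second, with 39.4%, at 26.7 against 2.08 or less. Cd34 and the brighter probe set of Kit, both surface proteins of progenitors, were high on all 4 arrays, at 1098 to 2459 and 1149 to 2214. The dimmer Kit probe set was lower in both G4/G5 CMP pools, at 62.7 and 64.4, against 121.3 and 115.9 in the G0 CMP pools. Fcgr3, an Fc receptor that is high on GMP and low on CMP, read 38.7 and 83.9 for the normal CMP pools and 72.2 in G4/G5 pool 2, but 617.5 in G4/G5 pool 1, against 731.9 to 1457 on the GMP arrays. The CMP label therefore held by this marker for 3 of the 4 arrays, and the library labelled G4/G5 CMP pool 1 had Fcgr3 near the GMP level. Tert reached at most 14.9 on any array, too dim to check the genotype, and its allele is modified rather than deleted.

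Over the 8570 genes, 3 passed in a limma fit over all 8 arrays at an adjusted p of 0.05: Ly86 and Cuedc1 rose (0.0233% of genes tested) and Taf15 fell (0.0117%). At an unadjusted p of 0.05, 759 genes lay higher and 414 lower. The groups did not overlap, with both G4/G5 pools above both G0 pools, for 1824 genes (21.3%), and with both below for 1309 (15.3%). A distance of at least 1 log2 unit between the groups was reached by 8 genes higher (0.0933%) and 10 lower (0.117%) in both pools. Another 36 genes (0.42%) lay at least 1 unit above the 3 other CMP arrays in G4/G5 pool 1 while pool 2 did not lie above both G0 pools, and 10 (0.117%) lay below in that way. The number of genes that passed turned on single arrays. Leaving out G0 CMP pool 1 gave 13, and leaving out G0 CMP pool 2 gave 198. Leaving out the G4/G5 pools gave 3 (pool 1) and 260 (pool 2). It was 0 without either G0 GMP pool (914 and 912 at an unadjusted p of 0.05 by limma) and 1 without either G4/G5 GMP pool. With the 4 CMP arrays alone, which leave 2 residual degrees of freedom, it was 0 (468 at an unadjusted p of 0.05). The number of genes at least 1 unit apart, 18 in all, was 50 without G0 pool 1, 155 without G0 pool 2, 41 without G4/G5 pool 1 and 181 without G4/G5 pool 2. A gene that reaches 50 in 1 group only had to differ to be tested: of the 8 higher genes Ly86 alone reached 50 on both G0 arrays, and of the 10 lower genes 6 reached it on both G4/G5 arrays.

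**Figure D1:**
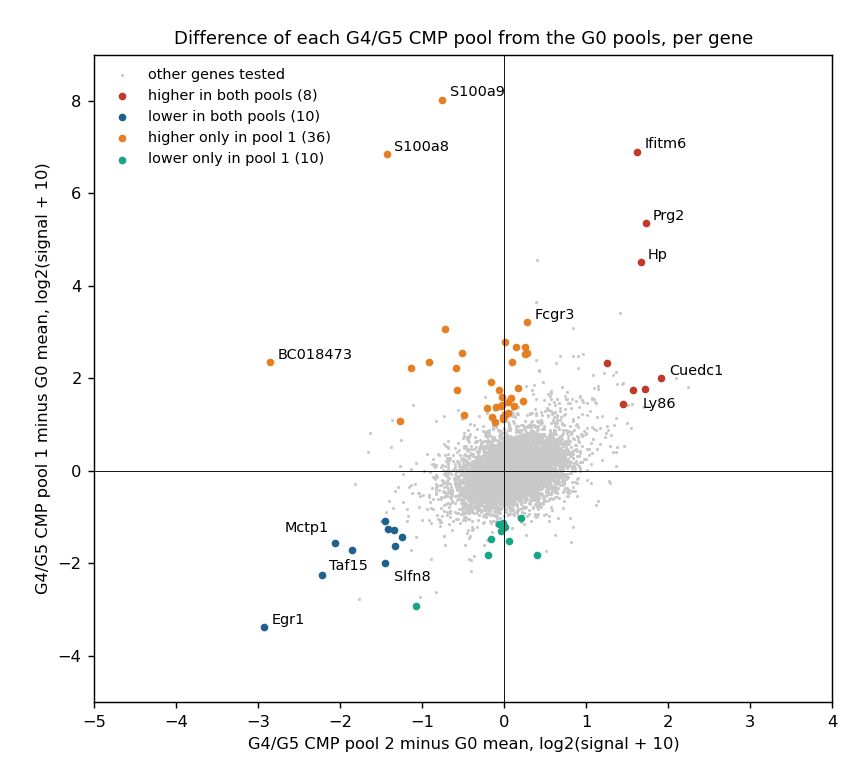
Difference of each G4/G5 CMP pool from the mean of the G0 CMP pools, per gene, on the log2(signal + 10) scale, with pool 2 on the horizontal and pool 1 on the vertical axis. Coloured points are the 8 and 10 genes at least 1 unit apart in both pools and the 36 and 10 genes apart in pool 1 but not in pool 2; S100a9 lies at 8.02 in pool 1 and -0.76 in pool 2, while Taf15 lies at -2.26 and -2.23.

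Taf15, a protein that binds RNA and acts in transcription and splicing, read 380.0 and 322.7 in normal CMP against 65.3 and 67.0 under telomere dysfunction. Both G4/G5 pools were low to the same degree, and the groups lay further apart than for any other gene tested. It fell by 2.24 ± 0.20 (SE, 2 pools per group) on the log2 scale (limma, adjusted p = 0.0135). A dimmer probe set of the gene, below the filter, gave 42.1 and 32.4 against 12.8 and 12.6. The fall was also seen on the GMP arrays, which read 208.5 and 249.7 in the normal pools against 51.4 and 75.2 in the dysfunctional pools.

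Ly86, also called MD-1, is a secreted partner of an innate immune receptor of B cells and myeloid cells. Its signal was 201.0 and 284.7 in normal CMP against 826.5 and 731.6 under telomere dysfunction, a rise of 1.66 ± 0.19 (limma, adjusted p = 0.0338). In GMP it read 454.6 and 552.0 in the G0 pools, against 483.5 and 559.4 in the G4/G5 pools, so those groups overlapped. The difference between CMP and GMP was 1.61 ± 0.27, the smallest interaction p of all genes (unadjusted p = 2.08e-04 by limma), yet its adjusted p was 0.992. Cuedc1, a ubiquitin-binding CUE domain protein, read 38.8 and 44.9 in the normal pools against 196.6 and 184.2 in the dysfunctional pools of CMP, a rise of 1.95 ± 0.22 (limma, adjusted p = 0.0338). Its other probe set past the filter read 44.7 and 86.0 against 121.4 and 142.1, the same direction with a smaller distance. Cuedc1 lay under 50 on both G0 arrays, so it was tested only through the group where it was high. With no filter, or with the filter on all 8 arrays, Taf15 alone passed of the 3. Leaving out G4/G5 CMP pool 1, which leaves 1 array in that group, Ly86 and Cuedc1 no longer passed. The genes that passed there were Taf15, Hp and BC018473. The study describes pools of one number as paired. With the pool number as a block within cell type, neither Ly86 nor Cuedc1 passed (adjusted p = 0.0639 for both by limma), while Taf15 did (adjusted p = 0.0173).

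No gene passed for a genotype difference that differed between CMP and GMP (0 genes, 0% by limma; 357 at an unadjusted p of 0.05). So no gene is shown here to differ in CMP alone. The groups were apart in opposite directions in CMP and GMP for 369 genes (4.31%). Leaving out G0 CMP pool 1 gave 3 genes, and leaving out the G4/G5 CMP pools gave 1 (pool 1) and 3 (pool 2). Leaving out any other array gave 0. Next to Ly86, the smallest interaction p-values belonged to the lysosomal protease Ctsz, the nuclear noncoding RNA Malat1, the cytokine receptor chain Il4ra, the ubiquitin ligase Nedd4 and the mitotic ubiquitin-conjugating enzyme Ube2c. Ctsz read 598.8 and 534.3 in the G0 pools, against 1285 and 1065 in the G4/G5 pools of CMP, while the GMP arrays all lay between 2280.5 and 2731.

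The stretches before the start of 6 genes are shown because these genes carry the contrast between what both pools share (Taf15, Ly86) and what pool 1 shows (S100a8, Ngp, Ltf and Lcn2, neutrophil proteins described further on). They are the 250 bases upstream of the RefSeq start on build GRCm38.p6, 5′ to 3′ on the strand of the gene. Capitals mark matches, on either strand, to the C/EBP core TTGCNNAA or the PU.1 core GAGGAA, motifs of 2 transcription factor families of granulocyte and monocyte genes. The windows of Chil3 and Camp, also bright on G4/G5 CMP pool 1 alone, held no match to either motif and are not shown.
Taf15 (chr11:83472858-83473107, + strand): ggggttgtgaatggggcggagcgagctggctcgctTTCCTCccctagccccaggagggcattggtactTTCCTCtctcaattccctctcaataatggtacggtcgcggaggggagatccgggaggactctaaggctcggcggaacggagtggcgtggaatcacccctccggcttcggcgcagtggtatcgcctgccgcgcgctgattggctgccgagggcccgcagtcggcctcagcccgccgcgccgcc
Ly86 (chr13:37345095-37345344, + strand): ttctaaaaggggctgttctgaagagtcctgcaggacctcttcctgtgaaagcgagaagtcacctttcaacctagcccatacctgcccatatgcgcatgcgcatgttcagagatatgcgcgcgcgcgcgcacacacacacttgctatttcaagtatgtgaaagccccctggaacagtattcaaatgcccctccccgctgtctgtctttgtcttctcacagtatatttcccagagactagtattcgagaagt
S100a8 (chr3:90668821-90669070, + strand): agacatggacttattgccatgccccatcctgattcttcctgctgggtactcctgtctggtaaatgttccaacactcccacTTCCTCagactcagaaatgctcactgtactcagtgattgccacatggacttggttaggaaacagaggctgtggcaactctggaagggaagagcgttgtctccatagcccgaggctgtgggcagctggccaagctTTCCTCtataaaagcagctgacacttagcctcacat
Ngp (chr9:110419558-110419807, + strand): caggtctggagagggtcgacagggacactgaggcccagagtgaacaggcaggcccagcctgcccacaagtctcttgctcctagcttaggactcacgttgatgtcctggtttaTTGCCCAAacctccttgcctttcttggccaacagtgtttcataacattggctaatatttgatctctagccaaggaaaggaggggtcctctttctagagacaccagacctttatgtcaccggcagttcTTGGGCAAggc
Ltf (chr9:111019042-111019291, + strand): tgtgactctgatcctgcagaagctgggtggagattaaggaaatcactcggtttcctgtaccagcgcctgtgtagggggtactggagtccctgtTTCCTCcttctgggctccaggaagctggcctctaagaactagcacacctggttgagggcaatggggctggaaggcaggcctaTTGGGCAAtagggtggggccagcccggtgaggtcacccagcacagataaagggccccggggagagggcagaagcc
Lcn2 (chr2:32387740-32387989, - strand): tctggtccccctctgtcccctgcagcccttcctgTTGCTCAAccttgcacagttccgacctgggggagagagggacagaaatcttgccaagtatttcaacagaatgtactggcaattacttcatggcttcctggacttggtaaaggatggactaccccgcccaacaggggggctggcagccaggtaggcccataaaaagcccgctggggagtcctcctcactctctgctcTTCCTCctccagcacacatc

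Of the 36 genes higher in pool 1 and not in pool 2, 30 had a promoter in the RefSeq table, and 10 of these (33.3%) held TTGCNNAA in that window. The share was 7.0% (496 of 7084) among all genes tested and 9.55% among all 27025 promoters. The core GAGGAA was in 9 of the 30, against 22.2% of the genes tested and 23.1% of all promoters. Among the genes higher in both pools, 5 had a promoter, with TTGCNNAA in 0 and GAGGAA in 1. Of 7 promoters of genes lower in both pools, 1 held TTGCNNAA and 5 held GAGGAA. The AP-1 site TGANTCA, also counted on both strands, was in 1 of the 30, 0 of the 5 and 1 of the 7. Its share was 3.7% among the genes tested and 6.87% among all promoters. Ngp, Ltf and Lcn2 belong to another set, 25 genes at 200 or more on G4/G5 pool 1 and under 50 on the other CMP arrays. Of these, 22 had a promoter, with TTGCNNAA in 4 (18.2%), GAGGAA in 8 (36.4%) and TGANTCA in 3 (13.6%). This set is not among the genes tested, so its shares are to be read against those of all promoters. The motifs were counted separately, so a window can hold more than 1. A match is a description of letters in this window and no site of binding.

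Beside Ly86 and Cuedc1, the genes at least 1 unit higher in both G4/G5 pools were Hp, Btla, Ifitm6, Arhgap31, S100a4 and Prg2. In some of these both G4/G5 pools lay at one level. Btla, an inhibitory receptor of lymphocytes, read 45.4 and 45.9 in the normal pools against 142.0 and 141.7 in the dysfunctional pools (1.45 ± 0.19; limma, adjusted p = 0.0572). Arhgap31, a GTPase-activating protein for Rac and Cdc42, read 31.8 and 8.77 against 85.5 and 81.8. In the others pool 1 was far higher than pool 2, so the groups were apart but unequal. Hp, haptoglobin, a haemoglobin-binding protein stored in neutrophils, read 46.5 and 42.7 in G0, 1230.5 in G4/G5 pool 1 and 162.8 in pool 2. Prg2, which eosinophils store as major basic protein, was at 107.8 and 34.8 in G0, 2951 in pool 1 and 230.1 in pool 2. For Ifitm6, an interferon-induced transmembrane protein of myeloid cells, the G0 pools were at 11.1 and 26.3, pool 1 at 3293 and pool 2 at 75.0. S100a4, a calcium-binding protein of motile cells, showed less of this, at 43.2 and 56.1 against 288.3 and 131.7.

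Just under that distance were Slpi, Ccl9, Ms4a4b, Lbp, B3galt4 and Vsir, at gaps of 0.85 to 0.99. Ccl9, a chemokine of myeloid cells, was bright in both G4/G5 pools, at 2728 and 2890.1, against 322.8 and 1372 in G0, where the pools themselves differed. Slpi, a secreted inhibitor of neutrophil elastase, read 94.8 and 168.8 in the G0 pools, against 593.7 and 340.6 in the G4/G5 pools. Lbp, a lipopolysaccharide-binding protein, read 55.0 and 109.6 against 221.1 and 276.0, with pool 2 the higher. Of all these genes near the distance of 1, those other than Ly86 and Cuedc1 did not pass the test.

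The 10 genes lower in both pools were Taf15, Egr1, Slfn8, Slfn10-ps, Slc6a15, Efhd2, Rhobtb3, Mmrn1, Mctp1 and Nedd4. In each of them the G4/G5 pools lay closer to each other than to either G0 pool. Slfn8, a member of the Schlafen family that regulates growth of immune cells, read 171.4 and 135.1 in the normal pools against 30.7 and 49.1 in the dysfunctional pools (-1.73 ± 0.24; limma, adjusted p = 0.0575). Rhobtb3 read 170.6 and 206.9 against 54.2 and 68.7 (-1.48 ± 0.19; limma, adjusted p = 0.0572). The low values were again alike between the G4/G5 pools. Mctp1, a calcium-binding membrane protein, read 133.1 and 232.9 in the G0 pools, against 53.1 and 34.6 in the G4/G5 pools. For Mmrn1, multimerin, a protein of platelets and stem cells, the values were 196.2 and 172.6 against 70.0 and 66.1. Nedd4, a ubiquitin ligase, stayed bright in all pools, at 1369 and 1443 against 655.1 and 504.4 (-1.27 ± 0.18; limma, adjusted p = 0.0575), and its 3 probe sets past the filter differed in size, from -1.27 to -0.51. On the probe set at -0.51 the groups overlapped, as G4/G5 pool 2 read 855.6 against 806.4 and 848.3 in the G0 pools. Efhd2 depended on its probe set: the one used read 585.6 and 625.5 against 218.7 and 248.5, while another gave a difference of -0.02. None of the 9 genes besides Taf15 passed the test.

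**Figure D2:**
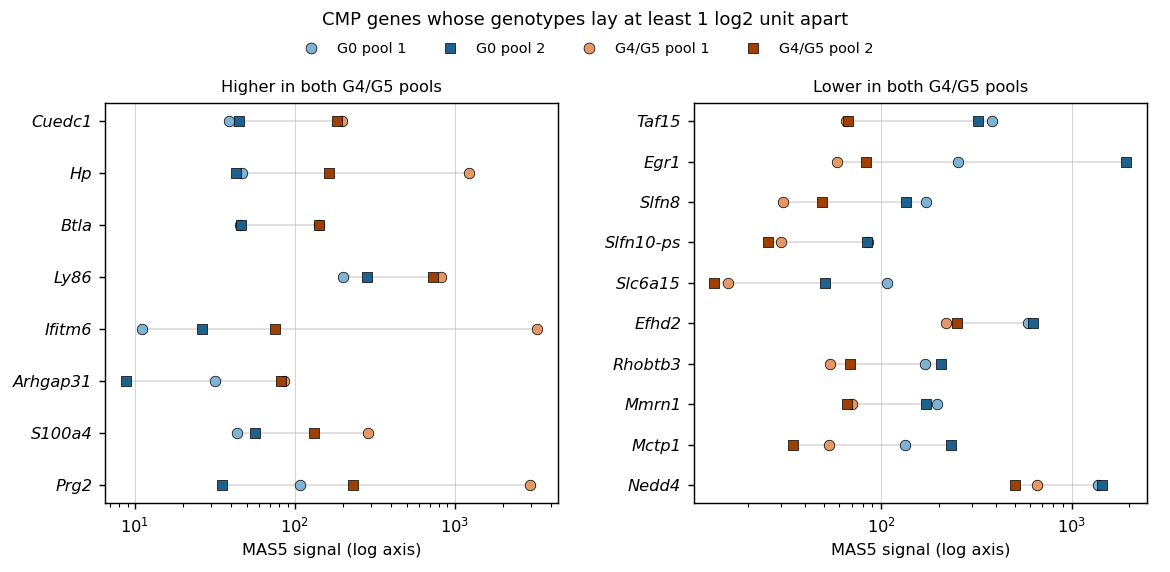
Signal on a log axis of the 18 genes whose G0 and G4/G5 CMP pools lay at least 1 log2 unit apart, with 1 point per array. Among the genes that were lower, the G4/G5 points lie closer to each other than to G0, while for Hp, Ifitm6 and Prg2 pool 1 lies far above pool 2, at 3293 against 75.0 for Ifitm6.

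Malat1, a long noncoding RNA of nuclear speckles, came just short of this distance and of the test, at 4320.2 and 5296 in the normal pools against 1762 and 2256 in the dysfunctional pools (-1.26 ± 0.16; limma, adjusted p = 0.0508). With the pool number as a block within cell type it passed (adjusted p = 0.0173 by limma), together with Taf15 and no other gene. With the block shared by the cell types 6 genes passed, namely Taf15, Malat1, Ly86, Cuedc1, Ctsz and Nedd4. Of the 6 Malat1 probe sets past the filter, 5 lay lower, at -1.39 to -0.65, and 1 lay higher, at 0.14. Others close to the distance were Timmdc1, a complex I assembly factor, Gm5141 and Etv5, an ETS transcription factor, at gaps of 0.93 to 0.96.

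The GMP arrays, which took no part in choosing these genes, gave the same side for most of those that were lower. Both G4/G5 GMP pools lay below both G0 GMP pools for 9 of the 10, the exception being Nedd4, against 26.9% of all genes tested. The filter was not applied to the GMP arrays, where Slfn10-ps was dim, at 16.6 and 18.1 in the G0 pools against 12.6 and 11.9 in the G4/G5 pools. Of the 8 that were higher, 5 had both G4/G5 GMP pools above both G0 GMP pools, against 27.8% of all. In GMP, Mctp1 read 192.7 and 175.1 in the G0 pools, against 67.6 and 78.4 in the G4/G5 pools, and Rhobtb3 118.2 and 127.9 against 46.0 and 41.9.

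Several of these genes are near one another in the genome. By gene order in RefSeq (assembly GRCm38.p6), Slfn8 and Slfn10-ps were 4 and 3 tested genes before Taf15 on chromosome 11, and Ccl9 was the next tested gene after it. On chromosome 13, Rhobtb3 and Mctp1 were 14 and 18 tested genes after Tert. Counted over all RefSeq genes, tested or not, Slfn8 and Slfn10-ps were 27 and 25 genes before Taf15. In that count Rhobtb3 and Mctp1 were 56 and 73 genes after Tert. Among the 20 tested genes on each side, 3 of 40 beside Tert and 3 of 40 beside Taf15 lay at least 0.5 apart between genotypes, against 138 of all 8570 (1.61%). Those beside Tert were Rhobtb3, Mctp1 and Zfp748, and those beside Taf15 were Slfn8, Slfn10-ps and Ccl9. All but Zfp748 had already been named above for their distance, so these shares are not independent of that choice. At any distance, 4 of the 40 genes beside Tert were apart on the higher side and 12 on the lower side, with a median of -0.12. Beside Taf15 there were 1 and 11 of 40, with a median of -0.07. Of all genes tested, 21.3% were apart on the higher and 15.3% on the lower side. These stretches were chosen after the values of the genes were seen, and whether position plays a part was not tested.

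**Figure D3:**
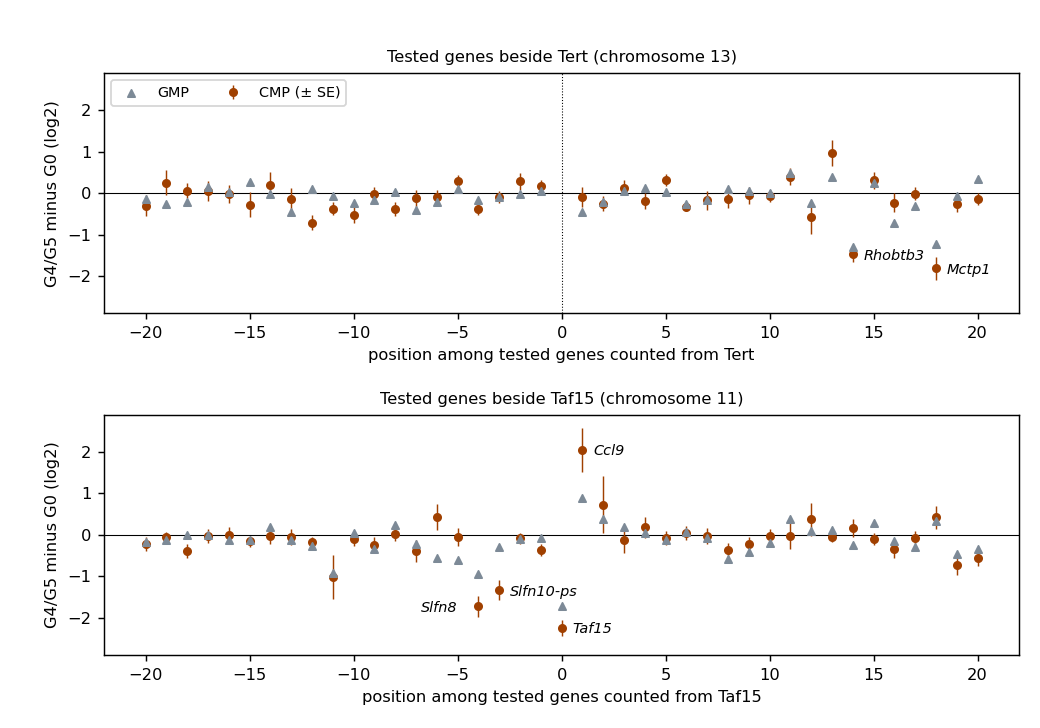
Genotype difference of the 20 tested genes on each side of Tert (upper) and Taf15 (lower), in gene order, for CMP with its standard error from the fit and for GMP, on the log2(signal + 10) scale. Most points lie near 0, while Rhobtb3, Mctp1, Slfn8, Slfn10-ps and Taf15 lie between -2.24 and -1.33 in CMP, and Ccl9 lies at 2.06.

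The genes of G4/G5 pool 1 that pool 2 did not share were led by neutrophil genes. S100a8 and S100a9, which pair as calprotectin, the most abundant protein of the neutrophil cytosol, were the furthest apart. S100a9 read 37.9 and 61.1 in G0, 15175 in G4/G5 pool 1 and 24.6 in pool 2. For S100a8 the values were 179.0 and 103.2, then 16783 and 44.3, so pool 2 was the lowest of the 4 arrays. Over both pools S100a8 had a difference of 2.71 ± 1.98 (limma, adjusted p = 0.584), and without pool 1 it was -1.43. With 1 array, none of these values has a replicate check.

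Other genes high in pool 1 are known from granulocyte and mast cell progenitors. Ms4a3, a membrane protein of GMP and promyelocytes, read 537.8 and 299.6 in G0, 2623 in pool 1 and 444.7 in pool 2. Anxa1, an anti-inflammatory annexin of neutrophils, read 749.0 and 925.1, 4299 and 890.6. Fcer1a, the IgE-binding chain of the receptor of mast cells and basophils, read 287.0 and 86.8, 988.2 and 195.7. In all 3 pool 1 was the outlying array and pool 2 lay within the G0 range. Gda, guanine deaminase, followed the same order, at 131.3 and 31.8 in G0, 633.6 in pool 1 and 36.4 in pool 2. Rab27a, a GTPase of granule release, and BC018473 split the pools to both sides of G0. Rab27a read 101.1 and 93.9 in G0, 491.9 in pool 1 and 61.6 in pool 2. For BC018473 the values were 91.5 and 85.4 in G0, 490.7 in pool 1 and 3.64 in pool 2. The remaining genes of the 12 furthest were Fcgr3, the metallothionein Mt2, the muscle LIM protein Csrp3 and the immunoglobulin segment Igkv8-30, which was also high in G0 GMP pool 2, at 989.2.

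In 15 of the 36 genes, pool 1 lay at least 1 unit above both G0 GMP arrays too. S100a9 was one, at 96.1 and 618.2 in normal GMP against 8342 and 8776 in dysfunctional GMP. For S100a8 and S100a9, then, G4/G5 CMP pool 1 and both G4/G5 GMP pools were high, and G4/G5 CMP pool 2 was as low as G0 CMP or lower. S100a8 read 898.0 and 1753 in normal GMP against 9762 and 10308 in dysfunctional GMP.

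The rule of 2 arrays leaves out genes that reach 50 on 1 array alone, and these were counted separately, after the pattern was seen. Of the genes left out, 274 reached 50 on G4/G5 pool 1 alone, against 69, 111 and 105 on G0 pool 1, G0 pool 2 and G4/G5 pool 2. At a signal of 200 or more there were 25 on G4/G5 pool 1, 1 on G0 pool 1 (the heat shock gene Hspa1b, at 312.7) and 0 on the other arrays. At 1000 or more there were 8, all on G4/G5 pool 1. They were the granule proteins Ngp, Camp, Lcn2 and Ltf, the chitinase-like Chil3, Wfdc21, the stefin Stfa2l1 and the formyl peptide receptor Fpr2. Ngp read 12.4 and 29.4 in G0, 8262 in pool 1 and 20.5 in pool 2. Camp, an antimicrobial peptide of secondary granules, was at 6.77 and 4.09, then 5902 and 1.28. Ltf, lactoferrin, was at 7.09 and 20.5, then 1504 and 14.2. On the normal GMP arrays Ngp was at 22.1 and 258.2 and on the dysfunctional ones at 4257 and 4743, below G4/G5 CMP pool 1.

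Most of the secondary and tertiary granule list showed this split. Of its 24 members on the array 7 passed the filter, and 16 of the other 17 reached 50 on G4/G5 pool 1 alone. Of the 7 tested, 3 were apart on the higher side (21.3% of all genes tested), namely Ifitm6, Anxa3 and Lyz2. Anxa3 read 149.5 and 273.0 in the G0 pools, against 722.0 and 444.3 in the G4/G5 pools. The summed signal of the list was 1851 and 2503 in G0 CMP, 76334 in G4/G5 pool 1 and 2625 in pool 2. Among its members, Chil3, Camp and Ltf were at 0.390, 1.28 and 14.2 in pool 2 and at most 20.5 in G0. Fcgr3, the receptor used above to check the label, was also high on that array. What part cells with these transcripts have in the other differences of pool 1 was not tested, and the list medians below are therefore given for each pool too. Unless said otherwise, counts of members apart are to be read against 21.3% of all genes on the higher and 15.3% on the lower side.

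**Figure D4:**
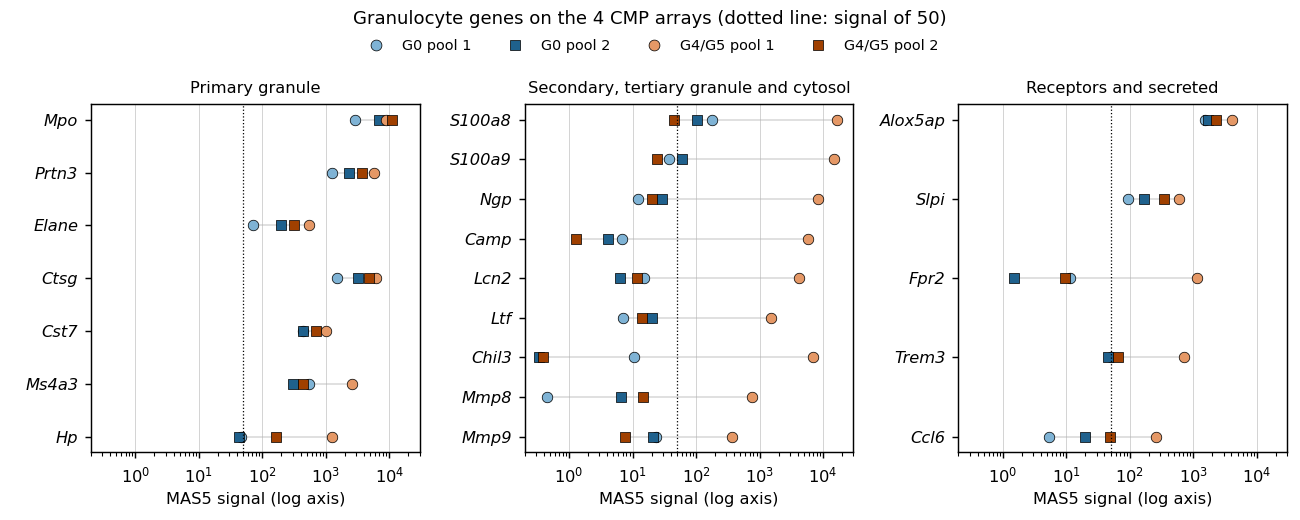
Signal on a log axis of granulocyte genes on the 4 CMP arrays, with 1 point per array and a dotted line at the signal of 50 used as the filter. Primary granule genes such as Prtn3 run from 1260.3 in G0 pool 1 to 5791 in G4/G5 pool 1 with G4/G5 pool 2 between, while secondary granule genes such as Camp and Ltf are high on G4/G5 pool 1 and near the floor on the 3 other arrays.

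A further 10 genes lay below the 3 other arrays in G4/G5 pool 1 and not in pool 2. The zinc finger protein Zfp235 read 38.6 and 54.7 in G0, 5.86 in pool 1 and 64.1 in pool 2. Hsph1, a heat shock chaperone, read 602.6 and 430.5, 170.3 and 532.1. U2af2, a splicing factor that recognises the end of introns, read 309.1 and 414.6, 121.9 and 318.5. Here pool 1 was low and pool 2 sat inside the G0 range or above it. S1pr1, a receptor that guides cells out of tissue, and Tmem98, Pkp4 and Gcnt2 followed the same order, and Jun is described with the immediate early genes. For Gcnt2 and Hsph1 this depended on the probe set, as others past the filter lay lower in both G4/G5 pools. One of Gcnt2 read 321.9 and 510.9 in G0 against 182.2 and 262.3. One of Hsph1 read 291.0 and 195.9 in G0 against 59.9 and 175.1.

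Primary granule genes were higher in both pools, in contrast to most of the later granule genes. Of 14 members on the array 13 were tested, and all 13 had a mean above 0 (54.8% of all genes tested), with 12 of 13 not overlapping (21.3% of all genes tested). The median difference was 1.17, against 0.03 for all genes, and it was 1.17 in pool 1 and 0.80 in pool 2. None of the 13 passed the test. Elane, neutrophil elastase, read 72.3 and 193.6 in the normal pools against 535.3 and 314.8 in the dysfunctional pools (1.70 ± 0.39). Prtn3, proteinase 3, read 1260.3 and 2297 against 5791 and 3765 (1.45 ± 0.27), and Mpo, myeloperoxidase, 2852 and 6814 against 8825 and 11199. Cst7, an inhibitor of cathepsins, read 445.0 and 429.5 against 993.9 and 712.3 (0.93 ± 0.16; limma, adjusted p = 0.118). In 10 of the 13 G0 pool 1 was the lowest array, and without it the list's median was 0.74. Ms4a3 was the member whose groups overlapped.

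Monocyte, macrophage and dendritic genes also lay higher in both pools, with 15 of 19 members not overlapping (21.3% of all genes tested). The list's median was 1.01 (1.17 in pool 1 and 0.90 in pool 2), or 0.74 without G0 pool 1. One of these genes, Ly86, passed the test. Fcer1g, the signalling chain shared by Fc receptors, read 186.5 and 484.8 in the G0 pools, against 1140.3 and 833.7 in G4/G5 pools 1 and 2 (1.66 ± 0.40). Cd68, a lysosomal glycoprotein of macrophages, read 39.9 and 82.9 against 144.2 and 145.8, with the G4/G5 pools alike. Csf1r, the receptor that drives monocyte formation, read 335.8 and 875.2 against 903.3 and 1286, so G0 pool 2 nearly reached G4/G5 pool 1. Ctsc, a protease that activates granule enzymes, was the member with a mean below 0, at -0.01.

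Receptors and secreted proteins of maturing neutrophils had a median of 0.70, with 5 of 9 not overlapping (21.3% of all genes tested), and lay at 1.24 in pool 1 and 0.51 in pool 2. Alox5ap, needed for leukotriene synthesis, read 1509.8 and 1702 in the normal pools against 4153 and 2295 in the dysfunctional pools. Trem3, an activating receptor, read 711.0 in pool 1 and 64.8 in pool 2, and less than either in both G0 pools. The 4 tested subunits of the phagocyte NADPH oxidase had a median of 0.98, split as 1.32 and 0.49. Without G0 pool 1 the medians of these receptors and subunits were 0.46 and 0.50. Ncf1, its cytosolic organiser, read 267.5 and 520.8 against 1047 and 759.8. Of the granulocyte and monocyte transcription factors, Cebpd was apart, at 51.9 and 94.5 against 330.3 and 160.3 (1.58 ± 0.34), and so was Cebpb, at 155.1 and 142.5 against 366.2 and 197.9. Cebpa and Spi1, which act earlier, overlapped between the groups, and the list of 14 factors had 4 members apart on each side, with medians of -0.07 in pool 1 and 0.38 in pool 2. None of these genes passed.

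The list of eosinophils, basophils and mast cells had a median of 0.60 with 6 of 12 apart on the higher side (21.3% of all genes tested), at 1.00 in pool 1 and 0.28 in pool 2. Mcpt8, a basophil protease, read 218.0 and 244.0 in the G0 pools, against 477.6 and 317.5 in the G4/G5 pools. Hdc, which makes histamine, read 165.7 and 211.3 against 639.4 and 283.1. Megakaryocyte and platelet genes gave opposite signs in the pools, with medians of 0.41 in pool 1 and -0.53 in pool 2. Erythroid genes had medians of 0.49 and -0.09, and the latter was 0.08 without G0 pool 1. Without G0 pool 2 the erythroid median of 0.22 over both pools was -0.06. Pf4, platelet factor 4, read 828.7 and 755.1 in G0, 1682 in pool 1 and 323.0 in pool 2. Of the erythroid and megakaryocyte lists, 2 of 20 and 1 of 16 members were apart on the higher side, a smaller share than the 21.3% of all genes. On the lower side there were 1 and 4, Mmrn1 among the latter (15.3% of all genes).

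Stem and multipotent progenitor genes had a median of -0.22, much the same in both pools (-0.24 and -0.20), with 10 of 31 members apart on the lower side (15.3% of all genes tested) and 2 on the higher side. Meis1, a homeobox factor of stem cells, read 634.6 and 644.9 in the normal pools against 473.3 and 452.7 in the dysfunctional pools (-0.46 ± 0.16), while another probe set gave -0.14 with overlapping groups. Tek, the angiopoietin receptor, read 108.8 and 86.3 against 61.9 and 54.1. Hmga2, a chromatin protein of self-renewing progenitors, was lower by more in pool 1, at 146.8 and 262.8 against 23.4 and 105.9. Thy1, which marks stem cells and T cells, was one of the 2 on the other side, at 28.5 and 33.4 against 65.7 and 58.9. The list's median was -0.13 without G0 pool 2 and -0.12 without probe sets marked as less specific. None of its members passed.

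Targets of p53 lay higher to a similar degree in both pools. Of 21 tested, 13 were apart on the higher side (21.3% of all genes) and 0 on the lower side, with a median of 0.36, or 0.38 in pool 1 and 0.29 in pool 2. Zmat3, which p53 induces and which binds RNA, read 42.3 and 40.8 in the G0 pools, against 120.5 and 75.8 in G4/G5 pools 1 and 2 (1.04 ± 0.26). Cdkn1a, the cell cycle inhibitor p21, read 59.2 and 55.5 against 86.5 and 103.2, with pool 2 the higher (0.63 ± 0.21; limma, adjusted p = 0.284). Trp53inp1 and Ddit4, stress-induced regulators, were higher in pool 1, at 1088 and 248.9, than in pool 2, at 725.6 and 109.8. Mdm2, the ubiquitin ligase that degrades p53, overlapped, at 229.6 and 188.7 against 261.3 and 192.1. No member passed the test.

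DNA replication genes lay lower, with 47 of 51 means below 0 (45.2% of all genes) and 16 apart on that side. The median was -0.28, at -0.40 in pool 1 and -0.13 in pool 2, and -0.12 without G0 pool 1. Rrm1, a subunit of ribonucleotide reductase, read 1340.0 and 1161 in the normal pools against 884.6 and 954.2 in the dysfunctional pools. Lig1, the ligase that joins Okazaki fragments, read 725.6 and 708.1 against 569.5 and 568.5, equal in the G4/G5 pools. Pola1 and Pold1, catalytic subunits of DNA polymerases, were lower in pool 1, at 319.8 and 284.5, than in pool 2, at 487.5 and 479.3; another Pold1 probe set gave -0.24 with overlapping groups. Checkpoint, recombination and Fanconi genes had 12 of 43 apart on the lower side (15.3% of all genes) and a median of -0.17, at -0.32 in pool 1 and -0.06 in pool 2. Mitosis genes had 16 of 56 apart on that side and a median of -0.07 (-0.10 and -0.03), which was -0.03 without G0 pool 1 and -0.12 without G0 pool 2. Kif22, a kinesin of chromosome arms, was the mitosis gene furthest apart, at 1259 and 1279.7 against 547.6 and 733.6 (-0.99 ± 0.15; limma, adjusted p = 0.0962), but its 2 other probe sets past the filter had differences of -0.12 and -0.03.

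Cohesin, the ring complex that holds sister chromatids together, had 15 of 16 means below 0 (45.2% of all genes) and 9 apart on the lower side (15.3%). Its median was -0.23, at -0.39 in pool 1 and -0.13 in pool 2. Rad21, a core subunit whose other probe sets gave -0.75 and -0.20, read 1696 and 1493 in the G0 pools, against 1098 and 1175 in the G4/G5 pools. Nipbl, which loads the ring, read 611.8 and 561.1 against 325.0 and 299.4 (-0.89 ± 0.14; limma, adjusted p = 0.101), but its 3 other probe sets past the filter had differences of only -0.18 to -0.08. Polycomb, DNA methylation and MDS-mutated regulators (MDS, myelodysplastic syndromes, disorders of myeloid differentiation) had 14 of 35 apart on the lower side (15.3% of all genes). Their median of -0.21 was further from 0 in pool 1, at -0.38, against -0.05 in pool 2. Dnmt3b, a DNA methyltransferase, read 862.3 and 747.4 against 494.4 and 635.3, and Tet1, a dioxygenase of methylated cytosine, 296.9 and 289.7 against 186.0 and 236.0.

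Splicing genes as lists had medians close to that of all genes. The SR splicing factors had a median of -0.08 with 7 of 21 apart on the lower side (15.3% of all genes), and the core spliceosome -0.01 with 8 of 51, near that share. The SR median was -0.13 without G0 pool 2. Pool 1 lay lower than pool 2 in both lists, at -0.16 and 0.03 and at -0.10 and 0.05. Sf3b2, a subunit of the branch point complex with 5 other probe sets at -0.86 to -0.07, read 1438 and 1279 in the normal pools against 941.7 and 1045 in the dysfunctional pools, and no member of these lists passed.

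Telomere maintenance genes had a median of -0.03 (-0.16 in pool 1 and 0.14 in pool 2), with 2 of 21 apart on the lower side and 4 on the higher side, both smaller shares than those of all genes (15.3% and 21.3%). Terf1, a shelterin protein that binds telomeric repeats, was lower and equal in both pools, at 221.7 and 152.6 in the G0 pools, against 106.9 and 107.0 in G4/G5 pools 1 and 2 (-0.73 ± 0.19; limma, adjusted p = 0.225), while another probe set gave -0.23. In GMP it read 148.7 and 146.4 against 105.2 and 96.9. Dkc1, the telomerase RNA-binding pseudouridine synthase, overlapped between the groups.

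**Figure D5:**
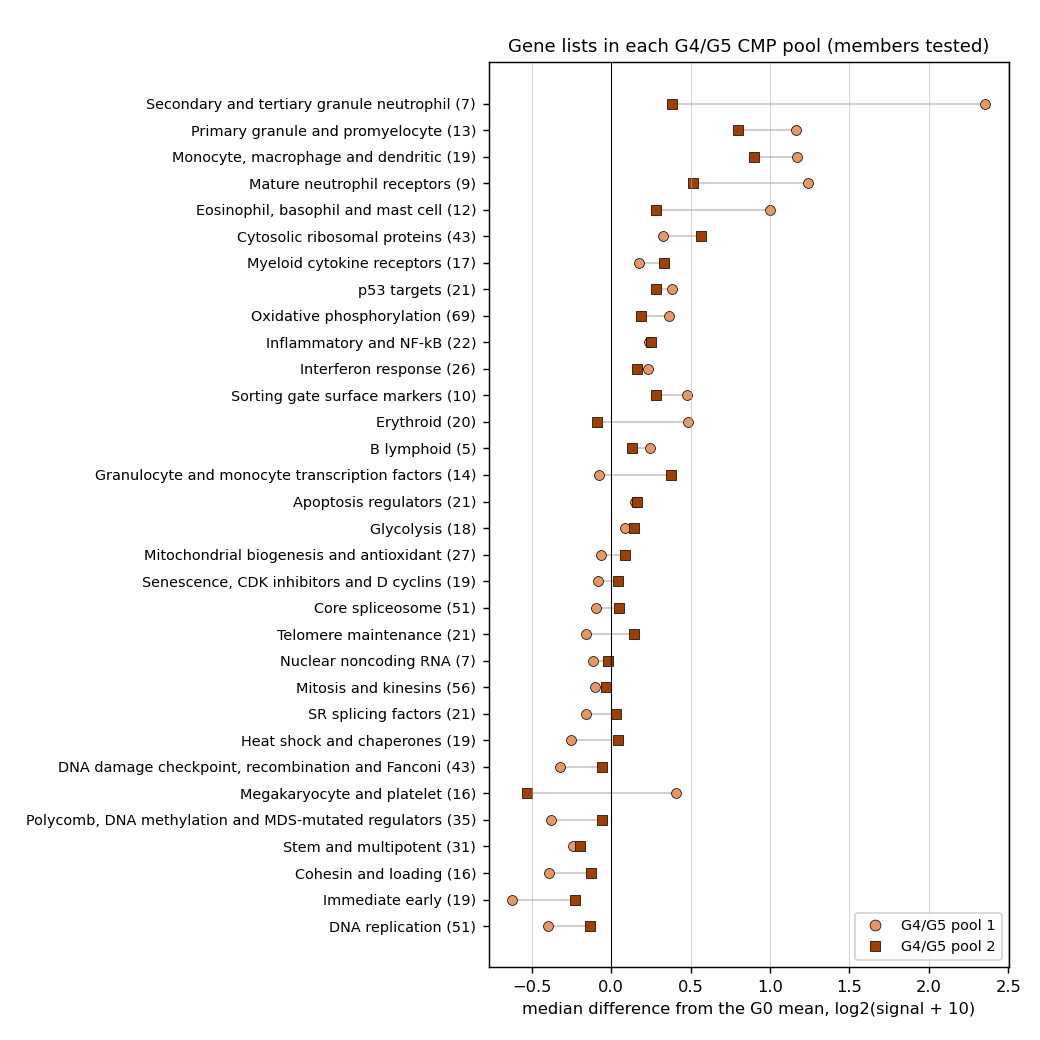
Median difference from the G0 mean in each G4/G5 CMP pool, per reported gene list with at least 5 tested members, on the log2(signal + 10) scale, with the number of members in brackets. Primary granule genes lie at 1.17 in pool 1 and 0.80 in pool 2, secondary and tertiary granule genes at 2.35 and 0.38, and the megakaryocyte list at 0.41 and -0.53, on both sides of 0. The secondary and tertiary granule medians are over the 7 tested members, and without G0 pool 1 that of pool 2 is -0.05. Over all 24 members on the array, not drawn, they are 4.99 and 0.09.

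Respiratory chain genes lay higher, with 47 of 69 apart on that side (21.3% of all genes tested) and a median of 0.30 (0.37 in pool 1 and 0.19 in pool 2), or 0.19 with quantile normalization. Uqcrh of complex III read 2149 and 2438 in the normal pools against 3529 and 3109 in the dysfunctional pools (0.53 ± 0.12), and Ndufa6 of complex I 1167 and 1255 against 1834 and 1613. Cytosolic ribosomal proteins, which are among the brightest transcripts, had 36 of 43 apart on the higher side, against the same share, and a median of 0.44, larger in pool 2 (0.57) than in pool 1 (0.33). With quantile normalization that median was -0.01, and without G0 pool 1 it was 0.28. Rplp0, of the ribosomal stalk, read 8391 and 11107 against 13459 and 15265, and no member of either list passed.

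Immediate early genes, which respond to stimulation within minutes, separated a G0 array from the other 3. Egr1, a zinc finger factor, read 254.0 in G0 pool 1 and 1919.7 in G0 pool 2, against 58.4 and 83.6 in G4/G5 (-3.16 ± 0.73; limma, adjusted p = 0.203). Fos, another gene of the early response, was at 66.2 in G0 pool 1, 3266 in G0 pool 2, 63.3 in G4/G5 pool 1 and 136.6 in pool 2. Jun read 33.2 and 501.6 in the G0 pools, against 9.65 and 60.3 in the G4/G5 pools. Of 19 members 2 were apart on the lower side, Egr1 and Nr4a2, and 1 on the higher side, Fosl2, smaller shares than those of all genes (15.3% and 21.3%). The list's median of -0.25 (-0.62 in pool 1 and -0.23 in pool 2) was 0.34 without G0 pool 2, so its sign rested on that array.

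Interferon response genes had 6 of 26 apart on the higher side, near the 21.3% of all genes, and 2 on the lower side (15.3%). Their median of 0.24 (0.23 in pool 1 and 0.17 in pool 2) was 0.05 without G0 pool 2. Psmb8 and Psmb9, subunits of the immunoproteasome, were alike in both pools, at 1655 and 1527 and at 964.7 and 918.4, against 1096 and 1071 and 634.8 and 683.3 in G0. Another Psmb8 probe set gave a difference of -0.34. Inflammatory and NF-kB genes had 6 of 22 apart on the higher side (21.3% of all genes) and a median of 0.26 (0.24 in pool 1, 0.25 in pool 2, and 0.13 over both without G0 pool 1), with Casp1, which activates interleukin-1, at 310.0 and 367.8 against 526.2 and 527.7. Apoptosis regulators had 7 of 21 apart on the higher side and a median of 0.14 (0.15 in pool 1 and 0.16 in pool 2). Glycolysis genes had 3 of 18 and a median of 0.10 (0.09 and 0.15). Without G0 pool 1 these medians were 0.08 and -0.04. None of these genes passed the test.

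Receptors of myeloid cytokines had 5 of 17 members apart on the higher side (21.3% of all genes) and a median of 0.43 (0.17 in pool 1 and 0.34 in pool 2), which was 0.13 without G0 pool 1. The surface markers of progenitor sorting had 3 of 10 and 0.23 (0.48 and 0.29; 0.35 without G0 pool 1 and 0.46 without G0 pool 2). Chaperones had 4 of 19 apart on the lower side (15.3% of all genes) and a median of -0.09 (-0.25 and 0.04), which was 0.02 without G0 pool 1 and -0.27 without G0 pool 2. Mitochondrial biogenesis and antioxidant genes had 7 of 27 apart on the higher side and 3 on the lower side, at a median of 0.07 (-0.06 and 0.09). For senescence genes, CDK inhibitors and D cyclins there were 3 of 19 on each side. The nuclear noncoding RNAs had 1 of 7 higher and 3 lower, and the Schlafen family 2 of 3 lower. Markers of other lineages were mostly under the filter: 5 of 18 B lymphoid, 4 of 17 T and NK and 4 of 19 stromal and endothelial genes were tested, of which 3, 3 and 0 were apart on the higher side and 0 on the lower. Of 3 tested sex-linked genes 1 was apart on each side. No member of these lists passed.

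Single arrays other than G4/G5 pool 1 also stood apart, though in other ways. G0 pool 1 lay at least 1 unit below the 3 other arrays for 64 genes and above them for 2, G0 pool 2 below for 12 and above for 14, and G4/G5 pool 2 below for 7 and above for 0. For G4/G5 pool 1 the numbers were 21 below and 71 above, and in 35 of the 71 pool 2 also lay above both G0 pools. At 3 units there were 6 genes above in G4/G5 pool 1, and in G0 pool 2 there was 1 above and 1 below.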

How the data were processed

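The 8 samples were profiled on 3′ expression arrays from 5 to 10 ng of RNA, per the labels' protocols. The deposited values are MAS 5.0 intensities scaled by the authors to a target of 100 per array, per the series' design text; detection calls were not used here. They are linear, so log2(intensity + 10) was computed here, with no further normalization. A probe set was named through the platform annotation: of 45101 probe sets, 64 were controls, 34945 had 1 symbol, 932 several and 9160 none. With arrays, precision is limited by their number, 2 per group.

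Genotypes were compared with limma 3.58.1 in R 4.3.3 (1 mean per group over all 8 arrays, intensity trend, 4 residual degrees of freedom, Benjamini-Hochberg over the 8570 genes, threshold 0.05). The script was tested on simulated data. Named genes were those that passed, the 14 largest distances in each direction between groups, the 12 above and 8 below in G4/G5 pool 1 but not pool 2, the 6 smallest interaction p-values and up to 4 members per list, with other members where the text singles them out after their values were seen. The genes, 38 lists and tests were chosen with earlier results of these data known. One of the lists is not reported here. The pairing comes from the design text; deviations of same-numbered pools correlated at 0.29 in CMP and 0.17 in GMP, over genes. Alternatives changed the pseudocount, filter, scaling, probe sets, trend, pool block and arrays. Figures used matplotlib 3.10.9.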

Additional observations from a re-analysis of the deposited data

Results flagged for a closer look

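For 14 named or listed genes every G4/G5 CMP pool lay on one side of both G0 CMP pools and every G4/G5 GMP pool on the opposite side of both G0 GMP pools. This is 14 of 169 such genes (8.28%), which were chosen in part for large distances, against 369 of all 8570 (4.31%). The difference of differences, CMP minus GMP, was tested as an interaction in the limma fit and passed for none of them (adjusted p = 0.992 for each; the unadjusted count was 357 over all genes).

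Most of these genes lay higher in CMP and lower in GMP. Il4ra, a chain of the interleukin-4 receptor, gave 1.24, the basophil protease Mcpt8 gave 1.07, and Gata2, a transcription factor of mast cells and progenitors, gave 0.99, though another Gata2 probe set gave a CMP difference of -0.10 with overlapping groups. Ifitm1, an interferon-induced membrane protein, gave 1.36 and Tspan33, a tetraspanin of erythroid cells, 0.85. For Tspan33 the CMP groups were barely apart, as G4/G5 pool 2 read 85.91 against 85.77 in G0 pool 1, while G4/G5 pool 1 read 171.7. Bag3, a co-chaperone, gave 0.85, the mitotic enzyme Ube2c 0.78, the mitochondrial thioredoxin reductase Txnrd2 0.70 and the T cell adaptor Lat 0.63. Smaller values were 0.39 for the splicing factor Srsf9, 0.34 for the glycolytic Pfkp, 0.32 for the telomere protein Ten1 and 0.30 for the spliceosome subunit Snrpe. The clock gene Per3 went the other way, at -0.72.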

How the results depend on the processing

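The count of genes that passed was 3. It was 8 with a pseudocount of 50 or with quantile normalization, 9 with median centring, 7 with no intensity trend, 1 with no signal filter or with the filter on all 8 arrays, 0 with the CMP arrays alone, and 0 to 260 when 1 array was left out. The replicate block shared by the cell types gave 6, and the replicate block within cell type gave 2, Taf15 and Malat1. Leaving out 1 array gave 0 to 3 genes for the difference between CMP and GMP. The 18 genes apart in both pools became 7 with a pseudocount of 50, 39 with no filter, 138 at a distance of 0.5 and 1 at a distance of 2, and 41 to 181 when 1 array was left out. The 92 genes where G4/G5 pool 1 lay that far beyond the 3 other arrays became 51 with a pseudocount of 50 or a filter of 100, 303 with no filter, 580 at 0.5 and 19 at 2, and 108 to 191 when 1 array was left out. Without G4/G5 pool 1, then without pool 2, the difference was 0.011 and -1.21 for Gcnt2, 0.061 and -1.53 for Hsph1, 0.40 and -1.82 for Zfp235, -0.73 and 3.07 for Gda, -0.92 and 2.36 for Igkv8-30, -0.59 and 2.22 for Rab27a, -1.43 and 6.84 for S100a8, -0.76 and 8.02 for S100a9 and -2.85 and 2.35 for BC018473. BC018473 was at 0.30 with a pseudocount of 50. These genes were chosen for a difference between the pools; for the counts the cause was not tested. Taf15 passed in 17 of 20 alternatives, Ly86 in 11 and Cuedc1 in 8.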
